A study of Mus musculus with 9 samples.

Results

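The core circadian clock loop was followed in RNA-seq libraries of mouse inguinal fat, through 10 genes chosen by name for their role in the loop. These were the activators Arntl (BMAL1), Clock and Npas2, the repressors Per1, Per2, Per3, Cry1 and Cry2, and the Rev-erb receptors Nr1d1 and Nr1d2. All 10 were among the 24539 genes of the deposited count table, and all 10 passed the filter on low counts with which 16745 genes were tested. The lowest count of any of them in any library was 272.

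The circadian clock of nearly every cell runs on a feedback loop of transcription. BMAL1 pairs with CLOCK, or with its relative NPAS2, and the pair binds E-box sequences and switches on the Per, Cry and Rev-erb genes. PER and CRY proteins then enter the nucleus and block the pair, while the Rev-erb receptors repress Arntl, so that Arntl and the Per genes peak at opposite times of day. The clock of fat tissue takes time cues from feeding, from glucocorticoids and from body temperature. Per2 is among the members that such cues can switch on directly.

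Each of the 9 libraries came from 1 C57BL/6 mouse on chow, and the groups were set by genotype and by housing. Floxed WT control mice carried the floxed Tet1 allele, with 2 kept at room temperature (RT; mice 1788 and 1810) and 3 exposed to 4 °C for 4 h (mice 1773, 1783 and 1812). Tet1 KO mice (Adi-Tet1KO) carried that allele with Fabp4-Cre, a driver that is also active in macrophages and outside fat, with 2 at RT (mice 1786 and 1814) and 2 in cold (mice 1781 and 1782). The study asked which genes TET1, a DNA demethylase, controls in fat at RT and after cold. The sources used here give neither the hour of collection nor the age of these mice, so time of day cannot be told apart from housing or genotype, and with 2 or 3 mice per group each value below rests on few animals.

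Housing was in doubt for the KO-labelled mice 1781 and 1786. The column names of the count table, which are followed here, put 1781 in cold and 1786 at RT, whereas the sample titles state the reverse. The log2 fold changes of Per2 in the study's supplement lie near those found here with the column names, and apart from those with the titles. The authors thus grouped these mice by the column names, which does not explain the titles. When the 5 WT libraries were fitted on their own, 59 genes rose and 42 fell in cold with the clock genes left out. Relative to WT at RT, the medians of these genes on the log2 scale were 0.23 and -0.08 in mouse 1786, near the 0.34 and -0.24 of the undisputed RT mouse 1814. They were 1.197 and -0.98 in mouse 1781, near the 1.40 and -1.22 of the undisputed cold mouse 1782. Calls that use these 2 mice are given with the housing of the titles and without both, where each KO-labelled group holds 1 mouse that is assumed to vary like the others.

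Library totals were 47605902 to 56292251 counts, and log2 CPM of 2 replicates correlated across genes with Pearson's r of 0.980 to 0.988, genes not being independent replicates. Levels are given in CPM, counts scaled to the size of the library by the TMM method. Tet1 itself was not lower under the KO label. It had 4.51 and 4.01 CPM in WT at RT, 5.33, 3.87 and 3.98 in WT in cold, 12.3 and 5.91 in KO-labelled mice at RT and 10.2 and 5.30 in cold. The count sums over all exons, and which of them the floxed allele loses was not found, so this gives no check of the deletion. All directions by genotype below are therefore directions between libraries as labelled.

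Adipocyte markers were abundant in every library, with a summed level of 9712 to 20809 CPM over 8 genes, as were fibroblast and progenitor markers at 9406 to 13994 CPM over 7 genes. The labels describe flash-frozen fat and the study describes fractionated adipocytes. In cold against RT in WT no marker was called, but several sums stood higher in cold. The 7 fibroblast and progenitor markers, 6 of them with log2 fold changes above 0, summed to 10725 to 10873 CPM at RT and 11643 to 13569 CPM in cold. The 6 lymphocyte markers, all above 0, summed to 6.47 to 36.3 CPM at RT and 28.5 to 75.4 CPM in cold. The 7 muscle markers, of which 2 were above 0, summed to 22.7 to 34.8 and 45.7 to 80.2 CPM. The 6 mammary markers, 5 of them above 0, summed to 1949 to 1972 and 2191 to 2479 CPM, and the adipocyte markers to 13453 to 14113 and 15381 to 20091 CPM. The 3 Schwann cell markers were lower in cold, at 122 to 137 and 86.0 to 100.3 CPM. In cold averaged over genotypes Pdgfra of the fibroblast list (log2 fold change 0.81 ± 0.15, adjusted p = 0.0242, edgeR's quasi-likelihood test) and Csn3 of the mammary list (0.65 ± 0.15, adjusted p = 0.0402 by the same edgeR test) were called higher. Only Pvalb of the muscle list was at 0, in WT cold mouse 1773. The 8 macrophage markers, of which 1 was above 0 for KO against WT at RT, summed to 824 to 985 CPM in WT and 463 to 626 CPM in KO-labelled mice at RT. In the same comparison the sums were also lower under the KO label for the fibroblast (9406 to 10351 CPM), mammary (1588 to 1824) and Schwann cell (67.2 to 112) markers and higher for the adipocyte markers (14549 to 14790), with no overlap with WT. The 2 KO-labelled cold mice stood apart from each other. Adipocyte markers summed to 9712 CPM in mouse 1781 and 20809 CPM in mouse 1782, and fibroblast markers to 13994 and 9584 CPM. All 8 adipocyte markers had log2 fold changes below 0 for KO against WT in cold. All 8 macrophage markers were above 0 for cold in KO-labelled mice, and none of either was called. The part of these cells in the clock results was not tested, and in bulk tissue fewer cells of a type and less RNA per cell cannot be told apart.

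In WT mice in cold, a repressor of the loop was higher and an activator lower than at RT. The hour of collection was not found, so time of day cannot be told apart from cold here. Per2 rose 4.20-fold and Arntl, the activator, fell to 0.475 of its RT level, and these were the 2 of 10 clock genes called, at an adjusted p below 0.05 over all genes tested and a change above 1.5-fold. In the same comparison 62 of all genes tested were called, or 0.37%. The median change of the 10 genes was 0.37 on the log2 scale, and their median absolute change was 0.71 beside 0.19 for all genes tested.

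Per2 (chr1:91415982-91459324, minus strand, mm10), a PER gene that outside cues can switch on, showed the largest change of the clock genes. Its levels were 15.7 and 13.8 CPM in the WT mice at RT and 71.1, 49.6 and 65.6 CPM in those in cold. Every cold WT mouse lay more than 3-fold above both RT mice. The log2 fold change was 2.07 ± 0.19 (SE; adjusted p = 0.0106, edgeR's quasi-likelihood test), the 4th lowest p of all genes tested. The call was lost when either WT mouse at RT was left out (adjusted p up to 0.187), with the log2 fold change between 1.97 and 2.21 over all 9 omissions, and under the housing of the titles (2.07, adjusted p = 0.315).

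Per3 and Per1 differed from Per2. Per3 (chr4:151003652-151044665, minus strand), a PER gene with a smaller part in keeping the rhythm, had 17.6 and 14.6 CPM at RT and 29.1, 23.6 and 26.9 CPM in cold in WT. The groups did not overlap, and the log2 fold change of 0.72 ± 0.15 did not pass (adjusted p = 0.0977, edgeR's quasi-likelihood test). Per1 (chr11:69095217-69109960, plus strand), whose protein acts beside PER2, had 187 and 181 CPM at RT and 200, 185 and 222 CPM in cold. These ranges overlapped, and the log2 fold change was 0.14 ± 0.14.

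Promoter sequences, taken from RefSeq (GRCm38.p6, the assembly of mm10) as 250 bases before to 50 after each start, were searched on both strands for 5 motifs. These were the E-box CACGTG, the E′-box CACGTT, the D-box TTANGTAA, the end of the ROR element TAGGTCA and the cAMP element TGACGTCA, and no match overlapped another. Of 13 promoters of 9 of the clock genes, 2 held an E-box, 3 an E′-box, 1 a D-box, 1 a ROR element end and none a cAMP element. Over all 32851 promoters the shares were 7.15%, 4.68%, 2.32%, 2.61% and 1.79%. Per2 had no entry. The sequences of Per1 and Per3 are shown because these PER genes carry different elements, with capitals marking the E-box in Per1 and the D-boxes in Per3, the element bound by DBP, TEF and HLF and by their opponent NFIL3.
Per1 (chr11:69098743-69098828, plus strand, in an intron of the longer GENCODE transcripts): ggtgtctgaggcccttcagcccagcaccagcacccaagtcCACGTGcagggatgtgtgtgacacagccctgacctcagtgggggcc
Per3 (chr4:151044776-151044910, minus strand, upstream of the gene): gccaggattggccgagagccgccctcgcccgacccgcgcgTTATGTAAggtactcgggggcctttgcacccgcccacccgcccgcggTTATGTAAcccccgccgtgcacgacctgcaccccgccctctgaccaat
The Per1 E-box starts 166 bases before the start, and the D-boxes of Per3 start 205 and 158 bases before it. A match is a run of letters and not a measured binding site.

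The cryptochromes, the partners of PER in repression, were not called in cold WT fat. Cry2 (chr2:92403646-92434043, minus strand) had 49.8 and 48.6 CPM at RT and 75.3, 73.9 and 91.2 CPM in cold. The cold mice all lay above the RT mice, and the log2 fold change of 0.70 ± 0.12 stood just outside the threshold (adjusted p = 0.0502, edgeR's quasi-likelihood test). Cry2 shares 295 of its 6320 exon bases with D930015M05Rik on the opposite strand, which had 171 to 275 counts per library. Cry1 (chr10:85131700-85185064, minus strand), the stronger repressor of the pair, had 10.2 and 12.2 CPM at RT and 15.7, 13.4 and 15.5 CPM in cold. Its groups did not overlap either, and the log2 fold change was 0.41 ± 0.20 (adjusted p = 0.444, edgeR's quasi-likelihood test).

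The Rev-erb receptors, which hold down Arntl, were not called in WT in cold. Nr1d2 (Rev-erb beta; chr14:18204054-18239127, minus strand) had 56.3 and 54.6 CPM at RT and 117, 88.7 and 103 CPM in cold in WT. All cold mice were above both RT mice, with a log2 fold change of 0.89 ± 0.15 (adjusted p = 0.0599, edgeR's quasi-likelihood test), and Nr1d2 was called without the mice of doubtful housing (0.89, adjusted p = 0.0404), as were 0.667% of all genes. Nr1d1 (Rev-erb alpha; chr11:98767932-98775333, minus strand) had 298 and 339 CPM at RT and 388, 415 and 395 CPM in cold. Its groups did not overlap, and the log2 fold change was 0.33 ± 0.19 (adjusted p = 0.528, edgeR's quasi-likelihood test).

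Nr1d1 ends inside Thra, the thyroid hormone receptor alpha gene on the opposite strand, with which it shares 263 of 3077 exon bases. Without a stated strand setting, reads there cannot be assigned, and Thra had 7120 to 10450 counts per library and a log2 fold change of -0.17 ± 0.11 in cold WT. The promoter of Nr1d1 is shown for its E′-box, in capitals as read on the opposite strand, 28 bases before the start.
Nr1d1 (chr11:98775378-98775445, minus strand, upstream of the gene): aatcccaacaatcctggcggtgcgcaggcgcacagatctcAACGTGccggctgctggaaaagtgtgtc

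The activators parted. Arntl (chr7:113207465-113314126, plus strand), the gene without which the loop stops, had 27.5 and 30.9 CPM in WT at RT and 13.7, 13.01 and 14.9 CPM in cold. The lowest RT mouse was well above the highest cold mouse, and Arntl fell by 1.07 on the log2 scale (SE 0.15, adjusted p = 0.0399, edgeR's quasi-likelihood test). Leaving out any of the 5 WT mice ended the call, while the log2 fold change stayed between -1.15 and -0.99 over the 9 omissions. Without 1 WT cold mouse 0.036% to 0.0838% of all genes were called, beside 0.37%. Without 1 WT mouse at RT, 1 mouse remains in that group. The housing of the titles ended the Arntl call too (-1.07, adjusted p = 0.315, edgeR's quasi-likelihood test), with 0% of all genes called. Npas2 (chr1:39193731-39363236, plus strand), which can stand in for CLOCK, had 15.2 and 20.7 CPM at RT and 8.30, 9.80 and 5.70 CPM in cold. Its groups did not overlap, and the log2 fold change of -1.17 ± 0.23 did not pass (adjusted p = 0.0827, edgeR's quasi-likelihood test). Clock itself (chr5:76209868-76304792, minus strand), known for a flat rhythm in many tissues, had 109 and 133 CPM at RT and 141, 109 and 132 CPM in cold, a log2 fold change of 0.07 ± 0.14.

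The start of Arntl is shown for the ROR element end, in capitals, where ROR receptors activate and Rev-erb receptors repress. The letters begin 30 bases after the start and lie in the first exon.
Arntl (chr7:113207530-113207559, plus strand): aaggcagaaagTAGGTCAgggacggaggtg

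**Figure D1:**
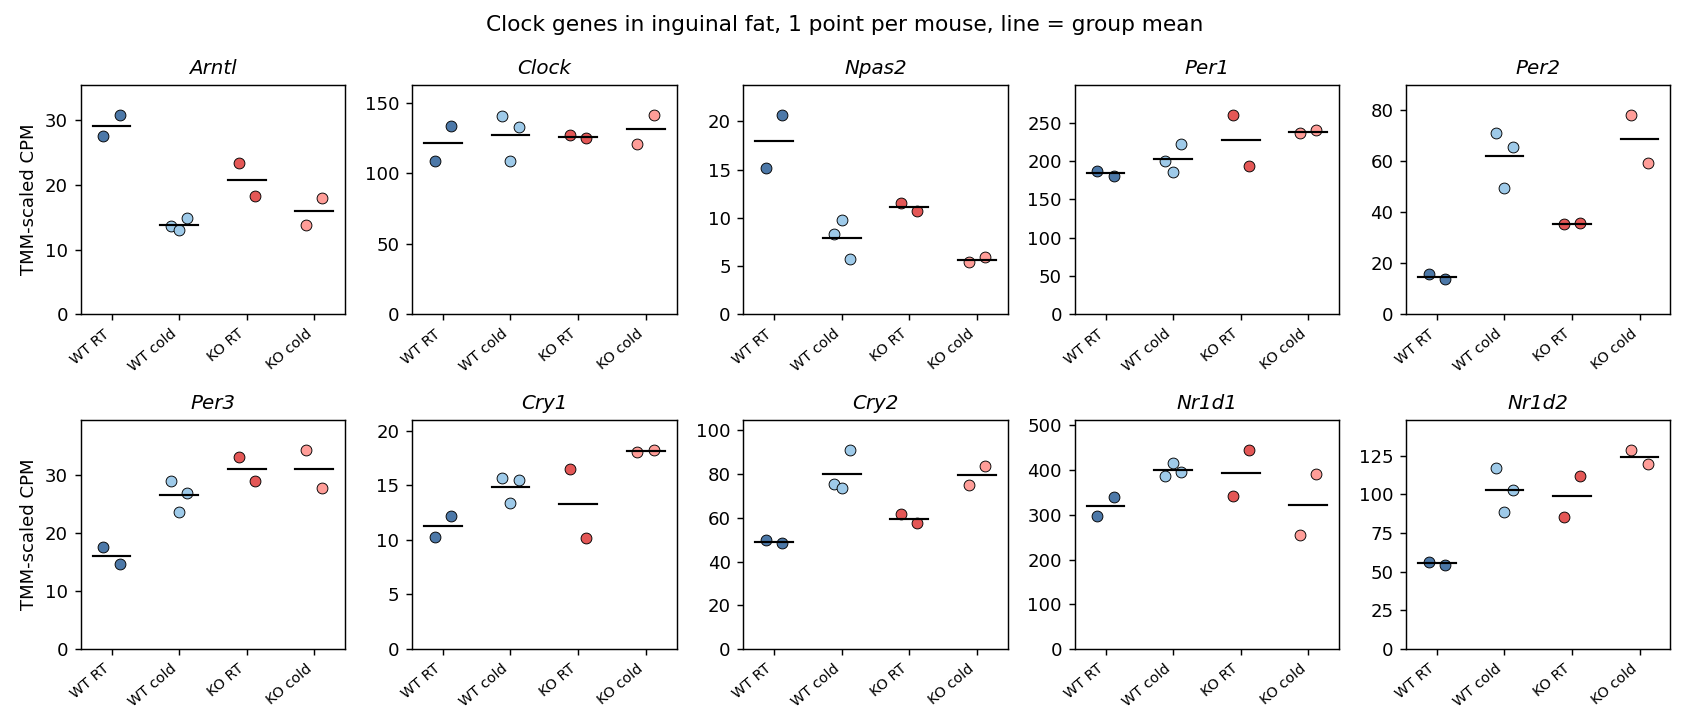
Level of each clock gene in TMM-scaled CPM (vertical axis, starting at 0) by group, with 1 point per mouse and a line at the group mean. Per2 rises from 15.7 and 13.8 CPM in WT at RT to 49.6 to 71.1 CPM in WT in cold, Arntl and Npas2 go the other way, and Clock stays between 109 and 141 CPM in all 9 mice.

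In the plot of levels by mouse, the WT mice at RT stand at the edge of the panels for most genes. In cold WT against RT, the groups did not overlap for 8 of the 10 clock genes, 6 higher and 2 lower, against 33.4% of all genes tested. The exceptions were Per1 and Clock.

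At RT, the KO-labelled mice lay between the WT mice at RT and the cold mice for Per2, although edgeR's quasi-likelihood test called no clock gene. Per2 had 35.5 and 35.6 CPM in these mice, above the 15.7 and 13.8 CPM of WT at RT and below every cold mouse. The log2 fold change of KO against WT at RT was 1.27 ± 0.19 for Per2 (adjusted p = 0.195, edgeR's quasi-likelihood test), 2.40-fold. Per3 had 33.2 and 29.1 CPM, and its log2 fold change was 0.95 ± 0.16 (adjusted p = 0.250 by the same edgeR test). For Nr1d2 the levels were 85.3 and 112 CPM, with a log2 fold change of 0.83 ± 0.16 (adjusted p = 0.388 by the same edgeR test). These were the 3 clock genes of the lowest p at RT.

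The activators Arntl and Npas2 were on the low side at RT under the KO label. Arntl had 23.4 and 18.2 CPM, below both WT mice, with a log2 fold change of -0.49 ± 0.17 (adjusted p = 0.626, edgeR's quasi-likelihood test). Npas2 had 11.5 and 10.7 CPM, also below both, with a log2 fold change of -0.69 ± 0.25 (adjusted p = 0.633 by the same edgeR test). The remaining 5 genes had log2 fold changes between 0.06 for Clock and 0.31 for Nr1d1. Cry2 had 61.8 and 57.4 CPM, Per1 260 and 194, Cry1 16.5 and 10.2, Nr1d1 343 and 446 and Clock 127 and 125 CPM.

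Of the 10 clock genes 0 were called by edgeR's quasi-likelihood test at RT, 5 had an unadjusted p below 0.05 (7.4% of all genes tested), and DESeq2 and edgeR's likelihood ratio test each called 3, namely Per2, Per3 and Nr1d2. Over all genes DESeq2 called 122, or 0.6%, and the likelihood ratio test 109, or 0.651%. The edgeR quasi-likelihood test called 6 of all genes there, or 0.0358%. Groups did not overlap for 8 of the 10, against 42.9% of all genes tested, a wide background because each group held 2 mice. Macrophage, fibroblast, mammary and Schwann cell markers were lower and adipocyte markers higher in the same KO-labelled mice, as given above, and their part in these differences was not tested. With the housing of the titles the log2 fold change of Per2 was 1.95 (adjusted p = 0.443, edgeR's quasi-likelihood test) and without both mice of doubtful housing 1.27 (adjusted p = 0.230 by the same edgeR test), and 0 of the 10 were called either way. The comparison shares the WT mice at RT with the cold response of WT mice, so a low Per2 or high Arntl in those 2 mice enters both.

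**Figure D2:**
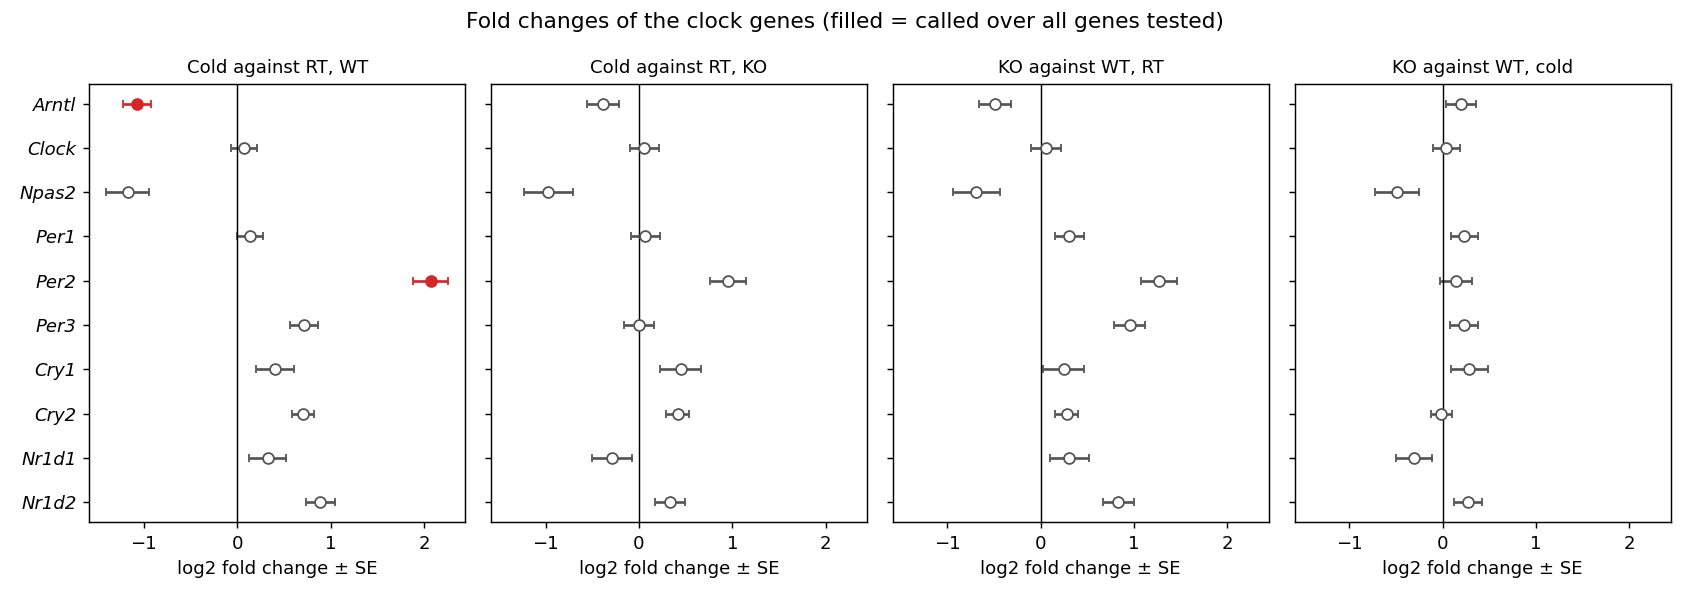
Log2 fold change of each clock gene (horizontal axis) with its standard error, in 4 panels for cold against RT in WT, cold against RT in KO-labelled mice, KO against WT at RT and KO against WT in cold. Filled points were called over all genes tested, which holds for Per2 (2.07) and Arntl (-1.07) in WT in cold, and the points of KO against WT in cold lie between -0.49 for Npas2 and 0.29 for Cry1.

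In KO-labelled mice no clock gene was called in cold, as the panels of fold changes show. Per2 had 78.2 and 59.2 CPM in cold, above the 35.5 and 35.6 CPM at RT, with a log2 fold change of 0.95 ± 0.19 (adjusted p = 0.0834, edgeR's quasi-likelihood test). Npas2 had 5.37 and 5.96 CPM in cold, which with WT cold mouse 1812 were the 3 lowest of its levels, with a log2 fold change of -0.97 ± 0.26 (adjusted p = 0.143 by the same edgeR test). Cry2 had 75.1 and 83.7 CPM in cold, with a log2 fold change of 0.41 ± 0.12 (adjusted p = 0.179 by the same edgeR test).

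Per3 was at nearly equal levels in these mice, with 34.4 and 27.7 CPM in cold beside 33.2 and 29.1 CPM at RT and a log2 fold change of 0.00 ± 0.16. Arntl had 13.8 and 18.0 CPM in cold, and 18.0 lies next to the 18.2 CPM of RT mouse 1814. Its log2 fold change was -0.39 ± 0.17 (adjusted p = 0.326, edgeR's quasi-likelihood test). Nr1d2 had 129 and 120 CPM, with a log2 fold change of 0.33 ± 0.16, and Cry1 had 18.0 and 18.3 CPM, with a log2 fold change of 0.45 ± 0.22. Nr1d1 had 255 and 391 CPM, the lowest of all 9 mice being cold mouse 1781. That mouse also had the lowest adipocyte marker sum, as given above. Per1 had 236 and 240 CPM and Clock 121 and 141 CPM.

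Within KO-labelled mice 0 of 10 clock genes were called by edgeR's quasi-likelihood test, against 56 of all genes, or 0.334%. Of the 10, 3 had an unadjusted p below 0.05 (15.6% of all genes), and DESeq2 and edgeR's likelihood ratio test each called Per2 and Npas2, beside 2.91% and 3.13% of all genes. Groups did not overlap for 6 of the 10, against 43.9% of all genes. All of this rests on the housing of mice 1781 and 1786. With the housing of the titles, the log2 fold change of Per2 was -0.27 and that of Npas2 0.12, neither called. Without both mice they were 0.72 and -0.85, again not called, and that of Arntl was -0.03.

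After cold, no clock gene was called between WT and KO-labelled mice. Per2 stood at 49.6 to 71.1 CPM in WT and at 59.2 and 78.2 CPM in KO-labelled mice, with overlapping ranges and a log2 difference of 0.15 ± 0.17. Arntl gave 0.20 ± 0.16 and Per3 0.23 ± 0.15, both with overlapping ranges. The ranges were apart for Per1, Cry1 and Nr1d2, all higher under the KO label, which is 3 of 10 against 19.1% of all genes tested, with log2 fold changes of 0.23 ± 0.14, 0.29 ± 0.20 and 0.27 ± 0.15. By edgeR's quasi-likelihood test 0 of the 10 were called, beside 13 of all genes (0.0776%), and 0 of the 10 had an unadjusted p below 0.05. DESeq2 and edgeR's likelihood ratio test also called 0 of the 10, beside 0.467% and 0.621% of all genes. None of the 10 was called with the housing of the titles or without both mice of doubtful housing, where Per2 gave -0.39 and -0.07.

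Whether the genotype difference itself changed with housing was tested as an interaction. For Per2 the difference between the KO effects in cold and at RT was -1.12 ± 0.26 on the log2 scale, with an unadjusted p of 0.0022 that became 0.999926 when adjusted (edgeR's quasi-likelihood test). Per3 gave -0.72 ± 0.22, Arntl 0.69 ± 0.23 and Nr1d2 -0.56 ± 0.22, each with an unadjusted p below 0.05 in the edgeR fit and the same adjusted p. Over all genes 2.74% had an unadjusted p below 0.05. The other 6 clock genes had an unadjusted p above that value. No gene of all 16745 was called, which is 0%, and DESeq2 and edgeR's likelihood ratio test called 0 of the 10 clock genes, beside 0.0148% and 0.0239% of all genes. With the housing of the titles Per2 gave -2.34 and without both mice of doubtful housing -1.35, with 0 of the 10 called either way. A difference between the genotypes in the cold response of a clock gene was not detectable after adjustment.

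Averaged over genotypes, 4 of the 10 clock genes were called between cold and RT, and each genotype counted equally in this average. Per2 rose by 1.51 ± 0.13 on the log2 scale (2.85-fold, adjusted p = 0.00277, edgeR's quasi-likelihood test) and Nr1d2 by 0.61 ± 0.11 (adjusted p = 0.0215 by the same edgeR test). Arntl fell by 0.73 ± 0.12 (adjusted p = 0.0146 by the same edgeR test) and Npas2 by 1.07 ± 0.17 (adjusted p = 0.0151 by the same edgeR test). Cry2, at 0.56 ± 0.08, passed on the p by that test (adjusted p = 0.0127) and stayed under the 1.5-fold threshold with 1.47-fold. This comparison called 527 of all genes, or 3.15%.

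The averaged Per2 call held whichever of the 9 mice was left out, with a log2 fold change from 1.40 to 1.61. Each of these 9 omissions called fewer of all genes than the 3.15% above. The count of clock genes called was 1 without WT RT mouse 1810 or without KO-labelled RT mouse 1786, in each case Per2, and Nr1d2 also lost its call without WT RT mouse 1788, WT cold mouse 1773 or KO-labelled cold mouse 1781. Without both mice of doubtful housing Per2 and Cry2 were called, beside 1.74% of all genes, and with the housing of the titles 0 were, beside 0.00597%, the Per2 value then being 0.90 (adjusted p = 0.488, edgeR's quasi-likelihood test). Averaged over housings, KO against WT called 0 of the 10 clock genes by edgeR's quasi-likelihood test, beside 21 of all genes, or 0.125%. Of the 10, 5 had an unadjusted p below 0.05 (11.6% of all genes), and DESeq2 and edgeR's likelihood ratio test, which called 1.13% and 1.46% of all genes, each called Per2 and Per3. Their log2 fold changes were 0.71 ± 0.13 and 0.59 ± 0.11. The quasi-likelihood test of edgeR called 0 of the 10 also with the housing of the titles and without both mice of doubtful housing.

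As a description, the ratio of Per2 to Arntl counts, which needs no scaling between libraries, was taken in each mouse. These were the 2 clock genes called in WT in cold, so the ratio had to part WT mice at RT from those in cold. It leaves out the other clock genes and is no test of a balance between repressors and activators. The ratio was 0.572 and 0.447 in WT at RT, 1.52 and 1.95 in KO-labelled mice at RT, 5.19, 3.81 and 4.40 in WT in cold and 5.66 and 3.29 in KO-labelled mice in cold. Thus the 2 WT mice at RT were the only ones with fewer Per2 than Arntl counts, the KO-labelled mice at RT came next, and the cold mice of both genotypes overlapped. Arntl minus the mean of Per1, Per2, Per3, Nr1d1 and Nr1d2, on the log2 CPM scale, ordered the groups in the same way. This score shares Arntl and Per2 with the ratio and leaves out Clock, Npas2, Cry1 and Cry2. It was -1.16 and -0.92 in WT at RT, -2.06 and -2.45 in KO-labelled mice at RT, and between -3.06 and -2.65 in the 5 cold mice. Mouse 1786 had the ratio of 1.52 and mouse 1781 that of 5.66, so with the housing of the titles the KO-labelled mice would have 1.95 and 5.66 at RT and 1.52 and 3.29 in cold. Without both, the ratio of 1.95 in RT mouse 1814 still lay between WT at RT and the cold mice.

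**Figure D3:**
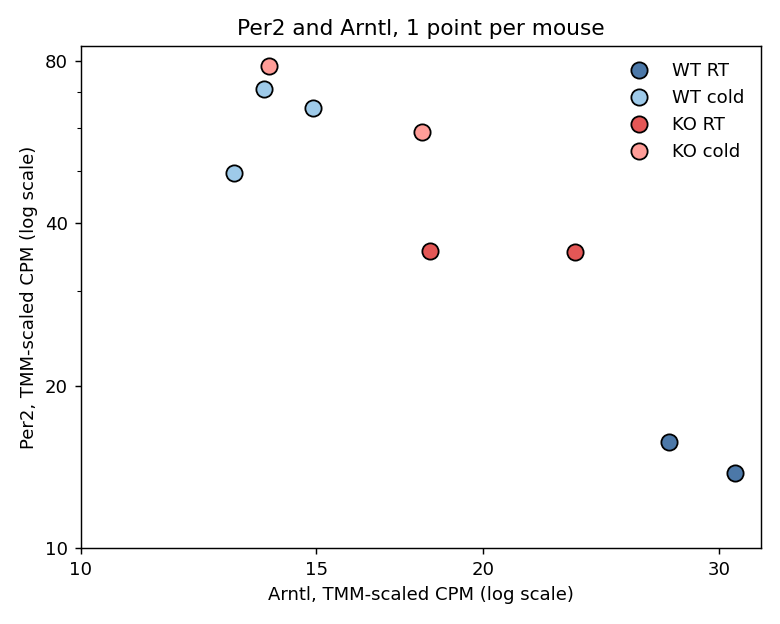
Per2 against Arntl in TMM-scaled CPM on log axes, 1 point per mouse, coloured by group. The WT mice at RT sit at the lower right (Per2 13.8 and 15.7, Arntl 30.9 and 27.5 CPM), the KO-labelled mice at RT lie between, and the 5 cold mice of both genotypes share the upper left.

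The plot of Per2 against Arntl shows those 3 positions. For 6 of the 10 clock genes both WT mice at RT lay outside the range of the 7 other mice, with Arntl and Npas2 above it and Per2, Per3, Cry2 and Nr1d2 below it. This was so for 1360 of all genes tested, or 8.12%, and the grouping was looked at after the values were seen.

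Levels were compared between genes with the deposited RPKM, which divides by gene length. In WT at RT the order was Nr1d1 (110 ± 6.3 RPKM, SD, n = 2), Per1 (37.6 ± 2.2), Cry2 (11.8 ± 0.60), Clock (11.7 ± 1.3), Nr1d2 (11.5 ± 0.65), Arntl (9.62 ± 0.44), Npas2 (4.10 ± 0.75), Cry1 (3.56 ± 0.33), Per3 (2.56 ± 0.42) and Per2 (2.43 ± 0.31). The ranges of the neighbours Cry2, Clock and Nr1d2 overlapped, as did those of Npas2 and Cry1 and of Per3 and Per2. After cold in WT, Per2 stood 6th of 10 with 10.2 ± 2.0 RPKM (SD, n = 3), apart from Cry1 below it and overlapping Clock above it, while Arntl stood 8th with 4.56 ± 0.26 and Npas2 10th with 1.82 ± 0.50. Nr1d1 and Per1 were 1st and 2nd in all 4 groups. Per2 and Per3 were thus the scarcest clock transcripts of WT fat at RT, and Per2 stood above Arntl, Cry1, Npas2 and Per3 in cold.

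The second loop and the output genes, which the core loop drives, were followed in a list of 15 genes, all tested. In WT in cold 3 rose and 0 fell, beside 0.37% of all genes called. Of the 15 log2 fold changes 12 were above 0, with a median of 0.53. Without the mice of doubtful housing the log2 fold changes of Dbp, Tef and Ciart, the 3 called, were 2.14, 1.49 and 2.37. With the housing of the titles 0 of the 15 were called, and 0% of all genes. Dbp, a D-box activator under direct control of BMAL1 and CLOCK, had 16.7 and 13.2 CPM at RT and 53.2, 70.0 and 74.3 CPM in cold (log2 fold change 2.14 ± 0.28, adjusted p = 0.0281, edgeR's quasi-likelihood test). Tef, its relative, had 78.4 and 55.1 CPM at RT and 169, 183 and 208 CPM in cold (1.48 ± 0.20, adjusted p = 0.0295 by the same edgeR test). Ciart (CHRONO), a repressor of the BMAL1 and CLOCK pair, had 1.18 and 0.846 CPM at RT and 4.88, 6.05 and 4.82 CPM in cold (2.37 ± 0.32, adjusted p = 0.0297 by the same edgeR test).

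In KO-labelled mice, where 0.334% of all genes were called in cold, Ciart was the 1 gene of this list called. It had 1.39 and 2.31 CPM at RT and 7.44 and 11.02 CPM in cold, a log2 fold change of 2.32 ± 0.33 (adjusted p = 0.0471, edgeR's quasi-likelihood test), beside 2.37 in WT. The call was lost with the housing of the titles (0.35, adjusted p = 0.999874 by the same edgeR test) and without both mice of doubtful housing (2.25, adjusted p = 0.153). Dbp in these mice gave 28.3 and 54.8 CPM at RT and 69.6 and 69.9 CPM in cold, a log2 fold change of 0.75 ± 0.29 that did not pass. Averaged over genotypes, Dbp, Tef, Hlf, Ciart and Usp2 rose and Nfil3 fell, beside 3.15% of all genes called. With the housing of the titles 0 of the 15 were called in this average, beside 0.00597% of all genes. Without both mice the log2 fold changes were 1.24 for Dbp, 1.13 for Tef, 0.88 for Hlf, 2.31 for Ciart, 1.06 for Usp2 and -0.62 for Nfil3. Between the genotypes 0 of 15 were called by edgeR's quasi-likelihood test at RT and also in cold, beside 0.0358% and 0.0776% of all genes. At an unadjusted p below 0.05 in that test there were 6 and 1, beside 7.4% and 6.09% of all genes. DESeq2 and edgeR's likelihood ratio test each called Dbp and Tef at RT, beside 0.6% and 0.651% of all genes. The study also lists both genes as higher in KO adipocytes at RT. In cold the 2 tests called 0, beside 0.467% and 0.621%.

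The sequences of Ciart and Nfil3 are shown as a chosen pair that went opposite ways in the averaged cold comparison and holds different elements. Of the other clock and output genes called there, Tef rose with an E-box and Arntl fell with a ROR element end. Dbp, Usp2 and Nr1d2 rose and Npas2 fell with none of the motifs, and Hlf rose with only a cAMP element. Per2 had no entry, and Per1 and Cry1 held an E-box and were not called. The part of these elements in the changes was not tested. Capitals mark 3 E-boxes in Ciart, 116, 58 and 44 bases before the start, and the ROR element end in Nfil3, read on the opposite strand 12 bases before the RefSeq start and inside the first exon of GENCODE. NFIL3 is the repressor that competes with DBP at D-boxes, and its gene is repressed by the Rev-erbs.
Ciart (chr3:95882252-95882384, minus strand, upstream of the gene): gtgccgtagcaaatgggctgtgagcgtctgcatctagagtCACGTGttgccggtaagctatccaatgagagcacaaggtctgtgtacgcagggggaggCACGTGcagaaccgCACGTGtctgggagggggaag
Nfil3 (chr13:52981033-52981062, minus strand): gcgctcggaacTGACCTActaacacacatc
Nfil3 had 80.8 and 121 CPM in WT at RT and 48.9, 43.7 and 51.7 CPM in WT in cold, 95.6 and 54.6 CPM in KO-labelled mice at RT and 41.3 and 48.8 CPM in cold. All cold mice lay below all RT mice, and the averaged log2 fold change was -0.90 ± 0.18 (adjusted p = 0.0290, edgeR's quasi-likelihood test). The 95.6 CPM are those of mouse 1786 and the 41.3 CPM those of mouse 1781, so with the housing of the titles the groups overlap and the averaged value is -0.24 (adjusted p = 0.911 by the same edgeR test). Without both mice the groups stay apart and the call is lost (-0.62, adjusted p = 0.104 by the same edgeR test).

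**Figure D4:**
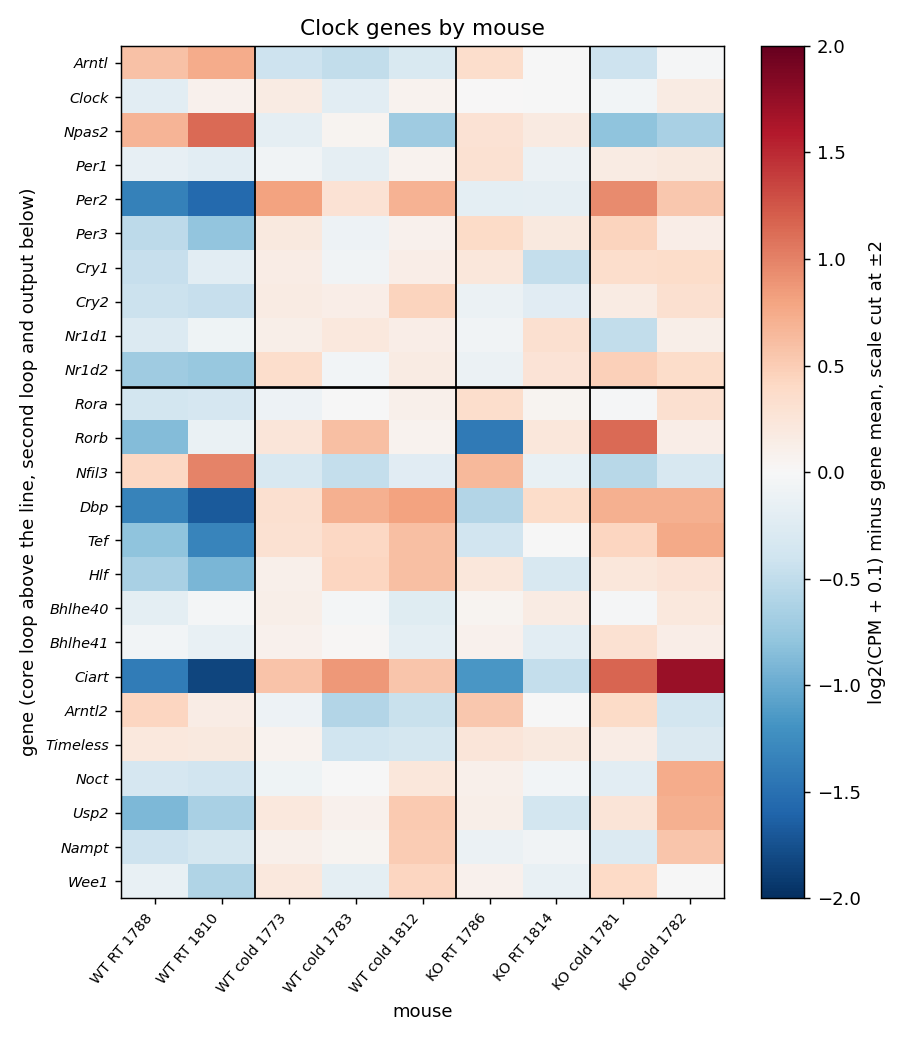
Heat map of the 10 core clock genes (above the line) and the 15 second loop and output genes (below it) in each mouse, coloured by log2(CPM + 0.1) minus the mean of the gene over all 9 mice, red above and blue below the mean, with the colour scale ending at ±2. The columns of the WT mice at RT are blue for Per2, Nr1d2, Dbp, Tef and Ciart and red for Arntl, Npas2 and Nfil3, and the WT cold columns lean the other way.

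In the heat map the KO-labelled mice at RT are paler than WT at RT for Per2, Nr1d2, Arntl and Npas2, and mouse 1786, of doubtful housing, is blue for Dbp and Ciart.

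Genes that act on the PER and CRY proteins, or that partner them, were a list of 16, with the casein kinases Csnk1d and Csnk1e and the ubiquitin ligase subunit Btrc among them. By edgeR's quasi-likelihood test 0 of 16 were called in all 7 comparisons. At an unadjusted p below 0.05 there were 3 in WT in cold, 3 in KO-labelled mice in cold, 3 between genotypes at RT and 3 between them in cold, beside 13.2%, 15.6%, 7.4% and 6.09% of all genes, and DESeq2 called 0 in each of these 4. The median log2 fold change of the list in WT in cold was 0.02, beside -0.01 over all genes tested. With 0.37% of all genes called in WT in cold, a count of 0 among 16 is near the background.

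Genes that follow the time cues of the fat clock were read in 3 lists, in WT in cold against the 0.37% of all genes called. Of 11 glucocorticoid-responsive genes 1 was called, Fkbp5, a chaperone that glucocorticoid receptors induce, with 30.3 and 34.1 CPM at RT and 189, 177 and 283 CPM in cold (log2 fold change 2.75 ± 0.35, adjusted p = 0.0250, edgeR's quasi-likelihood test). Averaged over genotypes Tsc22d3 (GILZ), another target of that receptor, joined it (0.97 ± 0.18, adjusted p = 0.0246 by the same edgeR test). Of 13 cAMP and early response genes 2 rose in WT in cold, the uncoupling protein gene Ucp1 (log2 fold change 4.32 ± 0.68, adjusted p = 0.0495 by the same edgeR test) and Dio2, the deiodinase that makes active thyroid hormone (3.26 ± 0.41, adjusted p = 0.0250). Of 9 temperature-responsive genes Rbm3, a cold-inducible RNA-binding protein gene, rose in WT (0.74 ± 0.12, adjusted p = 0.04999 by the same edgeR test), and Cirbp, its relative, in KO-labelled mice (0.95 ± 0.14, adjusted p = 0.0471 by the same edgeR test). Averaged over genotypes Rbm3 and Cirbp rose and the heat shock gene Hsph1 fell (-0.997 ± 0.17, adjusted p = 0.0184 by the same edgeR test). The thermogenic gene Ppargc1a, Ucp1 and Dio2 of the cAMP list were also called higher in this average, beside 3.15% of all genes called. Between genotypes averaged over housings, Ucp1 was called higher under the KO label, beside 0.125% of all genes. With the housing of the titles no gene of these 3 lists was called in cold in WT, in KO-labelled mice or on average. The shares of all genes called there were 0%, 0% and 0.00597%. Without both mice of doubtful housing the calls of Rbm3 in WT and Cirbp in KO-labelled mice were lost. The calls of Tsc22d3, Rbm3 and Ucp1 in cold averaged over genotypes were lost too. In WT in cold DESeq2 and edgeR's likelihood ratio test called 2.4% and 2.69% of all genes. Each called 4 of the 11, 3 of them higher and 1, Pdk4, lower. Each also called 3 of the 13 and 1 of the 9, all higher. Of the log2 fold changes in WT in cold, 8 of the 11, 8 of the 13 and 4 of the 9 were above 0. The part of these cues in the clock changes was not tested.

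Genes whose pattern over the 9 mice came closest to that of a clock gene were found by the root mean square difference of log2 CPM after centring each gene. For Per2, whose own SD over the mice was 0.87, these were Rab11fip4 (0.26), Slc4a8, Agtr1a, Hsf2bp and Dbp (0.33). Agtr1a, the angiotensin receptor gene, had 40.03 and 36.5 CPM in WT at RT and 115, 110 and 173 CPM in WT in cold. For Arntl, with an SD of 0.43, they were Gfod2 (0.16), Ddhd1, Nmnat3, Irs2 and 6430573F11Rik (0.17), of which Irs2, an adaptor of the insulin receptor, had 304 and 322 CPM in WT at RT and 192, 189 and 187 CPM in WT in cold. For Nr1d1, with an SD of 0.24, they were Ccnj (0.12), Mrps18c, Syap1, Mrps30 and Il15ra (0.13). These differences are descriptions over 9 libraries that share their groups.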

How the data were processed

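RNA-seq of inguinal fat from 9 mice was used, 1 library per mouse. The authors extracted RNA with Trizol and RNeasy, made BGI libraries, sequenced them on the BGISEQ, aligned reads to mm10 with STAR keeping reads that mapped to 1 place, removed mitochondrial reads and deposited raw counts per gene from featureCounts. The deposited RPKM columns of the same table were used only to order levels between genes. For versions, annotation and strand setting the sources used here give nothing.

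Counts were fitted with edgeR 4.0.16 (R 4.3.3; filterByExpr, TMM, robust glmQLFit, glmQLFTest) in 1 model of 4 groups with all 9 libraries and 7 contrasts. A gene was called at a Benjamini-Hochberg adjusted p under 0.05 over 16745 genes and a fold change above 1.5, and the interaction at the adjusted p alone. Errors of fold changes are SEs derived from the F statistic. CPM are TMM-scaled, and log2 CPM used a prior count of 2. The test was tested on simulated data. Of 24539 genes, 4210 had 0 counts in every library. Positions and overlaps came from GENCODE vM21 (GRCm38), promoters from RefSeq by symbol. Figures were drawn with Python 3.11.15 and matplotlib 3.10.9.

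The named genes were all 10 clock genes, the called genes of 5 lists (64 genes), and the 5 genes most alike Per2, Nr1d1 and Arntl. Another 2 genes of the lists are not reported here. The clock genes, the lists and the grouping by column names were chosen with earlier results of these data known. Alternatives were DESeq2 1.42.0, edgeR's likelihood ratio test, DESeq2 size factors in edgeR (RLE), no filter, the adjusted p alone, the housing of the titles, leaving out the 2 mice of doubtful housing, fitting only the groups compared, and leaving out each mouse. The design text counts 3 mice in each group, the labels 2 or 3. Pairs of replicates differed by more than sampling noise (chi-square per gene 51.6 or more), and each mouse was counted as 1 sample.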

Additional observations from a re-analysis of the deposited data

How the results depend on the processing

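In WT in cold, where 2 clock genes were called, the count was 4 with no filter on low counts, 6 with DESeq2 and 6 with edgeR's likelihood ratio test, 0 with the housing of the titles, and 0 to 3 with each mouse left out. Over all genes these settings called 0.418% with no filter, 2.4% with DESeq2, 2.69% with the likelihood ratio test and 0% with the housing of the titles, beside 0.37%. Without 1 WT cold mouse 1 clock gene was called, beside 0.036% to 0.0838% of all genes. DESeq2 and the likelihood ratio test each called 2 for cold in KO-labelled mice, 3 for KO against WT at RT and 2 for KO against WT averaged over housings, where the main test called 0. For cold averaged over genotypes, 4 were called beside 3.15% of all genes. The count was 0 with the housing of the titles, beside 0.00597%, and 3 to 5 without 1 WT cold mouse, beside 1.94% to 2.39%. It was also lower without mice 1781 and 1786 and without some other single mice. Those fits leave 1 mouse in a group and called fewer of all genes too.

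With the housing of the titles the log2 fold change of cold in KO-labelled mice turned to 0.37 for Arntl, 0.12 for Npas2, -0.27 for Per2, 0.065 for Nr1d1 and -0.24 for Nr1d2. That of KO against WT in cold turned to 0.14 for Npas2, -0.39 for Per2 and -0.0070 for Nr1d2, and for Per2 it was -0.074 without mice 1781 and 1786. With no filter, Per3 in KO-labelled mice in cold gave 0.0028. Leaving out single mice turned values near 0, which then ranged from -0.067 to 0.23 for Clock in WT in cold, -0.17 to 0.15 for Per3 in KO-labelled mice in cold, -0.085 to 0.21 for Clock at RT between genotypes, and, between genotypes in cold, -0.0065 to 0.37 for Arntl and -0.073 to 0.33 for Per2. The cause of these shifts was not tested. DESeq2 size factors in edgeR changed no direction and no call among the 43 fold changes reported. Deposited RPKM gave the same log2 ratios of cold over RT in WT within 1 SD of the replicates. The RPKM are the same counts divided by gene length and library size, so this is no separate check. No paired analysis was possible because the groups share no replicate number. In WT in cold, changes of the size of Per1 (0.14 ± 0.14) were not detectable against the spread between mice.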
